A study of Mus musculus with 7 samples.

Results

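Small nucleolar RNA (snoRNA) genes were examined in sorted tumour CD4 T cells. The members are the genes that the deposited count table labels snoRNA and that had at least 50 counts, summed over the 7 libraries. The members were thus chosen by measured counts, and the rule kept 121 of 1507 snoRNA genes, out of 55364 genes in the table. Another 118 snoRNA genes had counts below that limit and 1268 had none. The members held 458559 counts, which is 99.7% of all snoRNA counts and 3.98% of all counts in the table. Since the total count chose the members, their abundance is given as a description.

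The study profiled CD45+CD3+CD4+ T cells sorted from orthotopic tumours of the lung in C57BL/6 mice, which were over 8 weeks of age and all received tamoxifen. The Control group had 5 libraries from mice with the floxed MHC class II allele I-AbF/F and no Cre in the label. The Cre group had 2 libraries from I-AbF/FCol1a2-cre mice, which carry the same allele and a Cre driven by a promoter active in fibroblasts, and so not aimed at the sorted cells. The comparison asks what changes in the T cells when fibroblasts are the target of the deletion. The series text calls the libraries biological replicates, and the labels name no batch and do not say whether animals were pooled. Libraries held 1449739 to 1929899 counts, and 3 counts, taken as what a count of 0 allows, correspond to 1.55 to 2.07 CPM for counting error only, where CPM are counts divided by the total of their library. The Cre libraries had counts for 9052 and 7896 genes, fewer than the 10151 to 14849 of the Control libraries. The summed level of 6 T cell markers was 2354 to 3120 CPM over the Control libraries, 3131 CPM in Cre replicate 1 and 1880 CPM in Cre replicate 2, with none at 0 in either Cre library. The 3 B cell markers summed to at most 0.690 CPM, and 4 fibroblast markers to 160 to 491 CPM over the Control libraries. The fibroblast sum was 254 CPM in Cre replicate 1 and 51.7 CPM in Cre replicate 2. The 4 macrophage and monocyte markers summed to 7.37 to 36.4 CPM over the Control libraries, with all 4 at 0 in Cre replicate 1 and 3 at 0 in Cre replicate 2, which had 4.14 CPM. In such bulk libraries, fewer cells of a type and less RNA per cell cannot be told apart.

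SnoRNAs are short, mostly nuclear RNAs that guide the chemical modification and the cleavage of ribosomal RNA. Box C/D snoRNAs (Snord names) guide ribose methylation by fibrillarin, and box H/ACA snoRNAs (Snora names) guide pseudouridylation by dyskerin. In vertebrates most are cut from introns of host genes, many of which encode ribosomal proteins, translation factors or spliced non-coding RNAs of the Snhg type. Mature snoRNAs carry no poly(A) tail, and the libraries were made with a 3′-end protocol.

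The counted region of a snoRNA gene did not cover the snoRNA. Each of the 1507 snoRNA genes had 1 counted region of exactly 249 bases, which began 1 base past the annotated 3′ end of the gene and held 0 bases of the gene itself. All 1383 snRNA, 2202 miRNA and 354 rRNA regions in the table also held 0 bases of their gene, against 1.47% of the protein-coding regions. All 1507 genes had the same coordinates in GENCODE M21. The values below are therefore counts in the window just downstream of each snoRNA, on its strand, and they are not levels of the mature snoRNA. All windows have the same length, so CPM can be compared between members without a length correction.

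The annotated snoRNAs themselves carry the boxes of their class, which is shown here because 57 of the members have names that give no class. The last 24 bases of transcripts of GENCODE M21 (mm10) are printed 5′ to 3′ in DNA letters, with the D box or the ACA in capitals. The first set has C/D names, the second H/ACA names, and the third other names.
Snord35a: caaaggctaagCTGAtgccaggag
Snord15b: tttagaggcatttgtCTGAgaagg
Snord14e: taccttccttggatgtCTGAgtga
Snord13: cgtgggcacattacccgtCTGAca
Snord118: acatcctggttgctcctatCTGAt
Snora31: cagattgaattagggagtACAtct
Snora69: cgtgacaccttgacatgaACAgtt
Snora65: tgtgccgaaagcatgggaACAgcc
Gm24016: cttatacgctattCTGAgccgata
Gm24888: ctagtgcccagatcagaaACAtgg
Gm23202: tgtaacctgtcaggggaaACAtta

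The D box, CTGA, was searched in the last 15 bases of the sense strand, and the ACA where 3 or 4 bases follow it to the end (ACANNN or ACANNNN). CTGA stood at the end of 40 of 41 members with C/D names (97.6%), of 0 of 23 with H/ACA names, and of 7.11% of all 141704 GENCODE M21 transcripts. The ACA stood at the end of 21 of 23 members with H/ACA names (91.3%), of 0 with C/D names, and of 4.58% of all transcripts. The full C box, TGATGA, was in the first 20 bases of 28 of the 41, against 0.699% of all transcripts. Of the 57 members with other names, 29 ended with CTGA only, 20 with the ACA only, 2 with both and 6 with neither. Their median length was 76 bases in the CTGA group and 132.5 in the ACA group. Members with C/D names had a median length of 81 bases, and those with H/ACA names 133. A match of letters is a description and places no gene in a class.

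Windows of a few snoRNA genes in hosts of the translation machinery held most of the counts. The top 12 members took 62.1% of the summed mean CPM and the top 31 took 86.4%. Mean CPM over the 7 libraries ran from 4.62 to 7679, with a median of 48.6. It exceeded 1000 in 10 members, lay between 100 and 1000 in 42, between 10 and 100 in 44, and below 10 in 25. All 7 libraries had counts for 70 members. Just inside the limit were Gm22270 and both gene IDs of Rnu3b4, with 53 counts each, and just outside were Gm22455 with 49 counts and both IDs of Rnu3a with 47. Rnu3a and Rnu3b4 are copies of U3, which acts in the processing of small subunit ribosomal RNA.

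**Figure D1:**
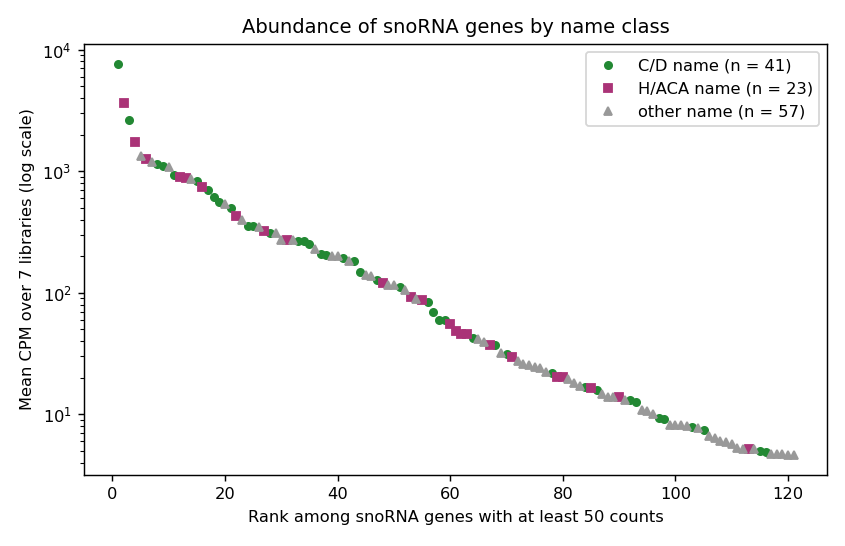
Mean CPM over the 7 libraries (log axis) of the 121 snoRNA genes, ordered by rank, with the marker giving the name class. Levels run from 7679 CPM to 4.62 CPM, and C/D, H/ACA and other names are mixed along the order.

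Snord35a stood first. It lies at chr7:45126346-45126435 on the minus strand (mm10) in an intron of Rpl13a, a protein of the large ribosomal subunit, and guides methylation of large subunit ribosomal RNA. Its window had 10555, 9542, 11897, 14516 and 8726 counts in the Control libraries in order of replicate number, against 17899 and 15506 in Cre replicates 1 and 2. The window took 19.4% of the members' summed mean CPM, and both Cre libraries exceeded all Control libraries in CPM. Of its 249 bases, 123 were coding exon of Rpl13a and 126 were intron.

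Snora31, at chr14:75847905-75848034 on the plus strand, lies in Tpt1, which encodes the translationally controlled tumour protein. It had 4980, 5651, 6194, 8002 and 4786 counts in the Control libraries, against 7568 and 4770 in Cre. The groups overlapped, at 3630 ± 710.1 CPM in Control (SD, n = 5) and 3606 ± 446.3 in Cre (n = 2). Its window held 185 bases annotated as 3′ UTR of Tpt1. Snord15b, at chr7:99479563-99479707 on the minus strand in the small subunit gene Rps3, had 4835, 5508, 2980, 4259 and 3577 counts in the Control libraries, against 6663 and 2783 in Cre. The groups overlapped here too, with the Cre libraries on either side of the Control mean of 2616 CPM.

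Snora69 lies in Rpl39, a large subunit gene on the X chromosome. It had 2881, 2082, 1962, 2495 and 2722 counts in the Control libraries, against 5112 and 3144 in Cre, and both Cre libraries were above every Control library. Snora65 in Rpl12, Gm24016 in Rps20, Snord14e in Hspa8, Snord34 in Rpl13a and Gm24888 in Rpl27a were next among those reported, with mean CPM between 1082 and 1256. Hspa8 encodes a constitutive chaperone, and Snord14e is a copy of U14, which acts in small subunit ribosomal RNA processing. The list of 12 ends with Snord100 in Rps12 at 937.7 CPM and Snora41 in Eef1b2, an exchange factor subunit of translation elongation, at 891.3 CPM.

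**Figure D2:**
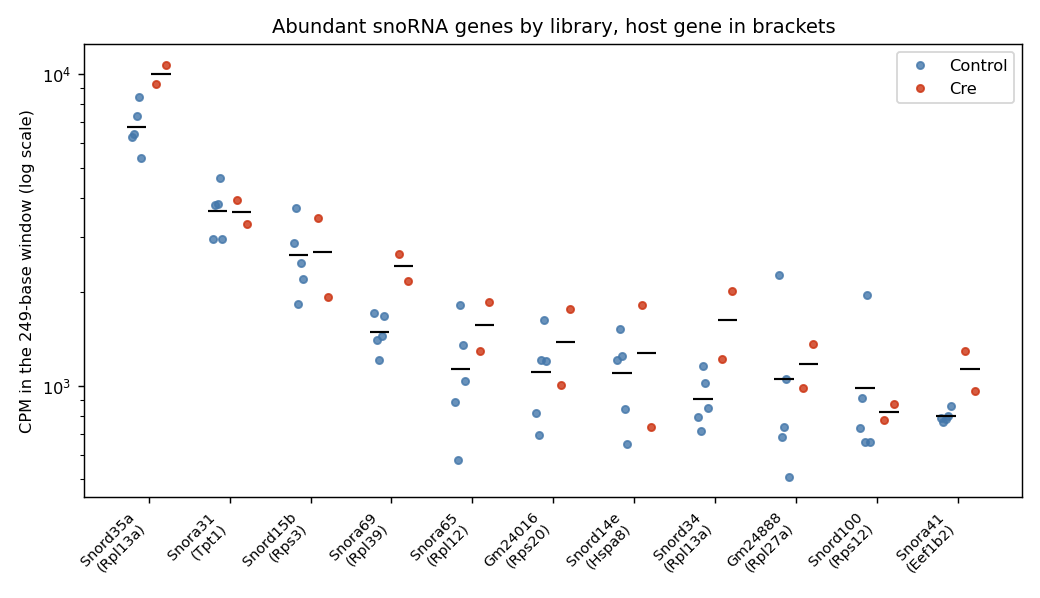
CPM in the window (log axis) of the snoRNA genes named here among the 12 of highest mean CPM, 1 point per library, with a bar at each group's mean and the host gene in brackets. For Snord35a, Snora69, Snord34 and Snora41 both Cre points lie above all 5 Control points, and for the others the groups overlap.

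By the median, C/D names had higher windows than H/ACA names. The median over members of the mean CPM was 148 for 41 C/D names, 86.9 for 23 H/ACA names and 22.2 for 57 other names. The C/D median was above the H/ACA median in 7 of 7 libraries, and the C/D sum was 1.72 to 2.01 times the H/ACA sum. These sums run over 41 and 23 members, so their ratio also reflects the number of genes. The C/D sum includes Snord35a, with a mean of 7679 CPM. Among members whose window overlapped no other counted region on its strand, the medians were 51.0 for C/D and 46.0 for H/ACA names. The rule also kept different shares of the classes, 41 of 98 C/D, 23 of 42 H/ACA and 57 of 1367 other names.

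Almost all counts stood in windows that reach into an exon. Of the 121 members, 114 lie inside another gene on the same strand, in 63 host genes, and 7 have no host. In 89 members (73.6%) the window held exon bases of a same-strand gene, with a median of 100 such bases, and these windows held 97.1% of the members' counts. Exons made up 31.5% of the bases of all members' windows. Exons are those of the basic annotation set of GENCODE M21, and windows without them can still hold counted regions of a host. The 27 windows with intron only held 1.99% of the counts and had a median of 10.1 CPM, against 127 CPM for windows with an exon. In snoRNA genes that are no members, 115 of 1386 windows (8.30%) held exon bases. The next host exon began a median of 78 bases past the snoRNA's end, never under 50, and within 100 bases in 63 of the 87 members that have a host and exon bases in the window. Membership rests on counts, so this association is a description.

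The 44 members in 28 ribosomal protein genes (Rpl and Rps names) held 66.9% of the members' counts. The 70 members in other hosts held 32.1%, and the 7 members without a host 1.02%. Single hosts can carry several members, and 24 hosts had 2 or more. Gas5, a non-coding host whose exons encode no protein, carried 8, Taf1d carried 7, Tex14 carried 6, Snhg12 carried 5, and Rpl13a and Snhg1 carried 4 each. Gene IDs are counted here. The 6 in Tex14 are both IDs of Rnu3b1, Rnu3b3 and Rnu3b4, and Snhg12 carries both IDs of Snora16a. Hosts are given by position only, and whether a snoRNA is cut from its host was not tested. For the IDs of Rnu3b4 the next Tex14 exon lies 11903 and 11904 bases away.

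The windows overlap counted regions of the hosts, so that the same reads stand in more than 1 total. In 72 members (59.5%) the window shared at least 1 base with the counted region of a different same-strand gene. In 56 of these the partner was a longer gene and in 16 only another small RNA gene. The overlapping members held 82.3% ± 1.75 of the members' counts (SD over 7 libraries), from 80.4% to 85.0%. For 25 of 65 pairs of a window and a host region the totals lay within 5% of each other, and in 23 of those also within 10% in every library. The 25 windows in these pairs held 51.8% of the members' counts.

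Snord35a's 88641 counts stood beside 92076 in the Rpl13a region that contains its window. Snora31 had 41951 counts and the overlapping Tpt1 region 41649. Snord100 had 10863 and the Rps12 region 10866. These windows and regions gave nearly the same totals. Snord14a had 2070 against 2070 in a region of Rps13. Snord15b differed from these, with 30605 counts against 5961 in the Rps3 region it overlaps by 102 bases. Its window also holds exon bases that lie outside that region.

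**Figure D3:**
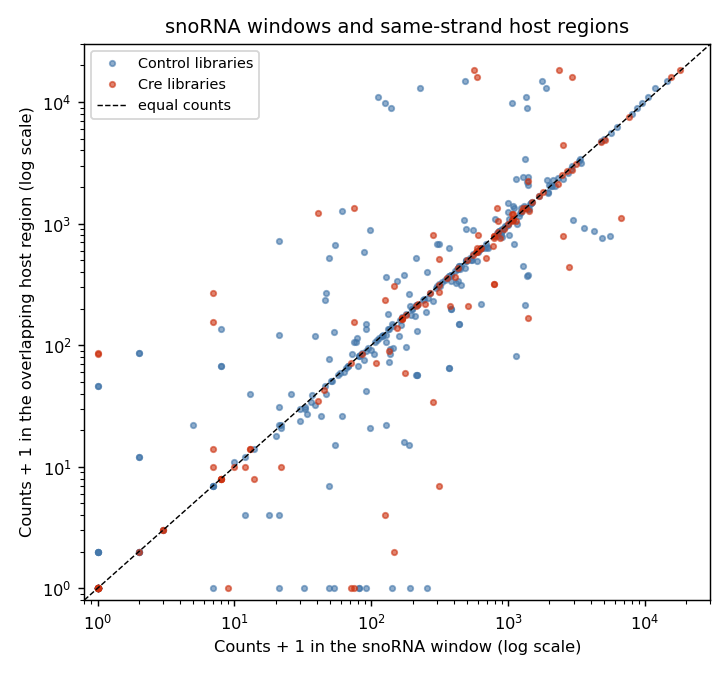
Counts + 1 in the snoRNA window against counts + 1 in the overlapping same-strand host region (both log axes), 1 point per pair and library, 65 pairs in all. Many points lie on the dashed line of equal counts, where 25 pairs had totals within 5% of each other.

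Regions on the opposite strand did not share these counts. A window overlapped an opposite-strand region in 8 members, and in all 8 the partner's total was lower. The windows of Snord4a and Snord42a, both in the large subunit gene Rpl23a, lie wholly inside a region of Tlcd1 on the other strand. Snord4a had 4082 counts and Snord42a 4059, while the Tlcd1 region had 34. Some windows held more than their host. In 24 members the window's total exceeded the total of the host gene's own regions, as in Snord4a, where Rpl23a had 3057 counts, and in Snora24, with 8587 counts against 6340 for its non-coding host Snhg8.

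Along a host, windows nearer the 3′ end held more counts in Rpl13a and in Gas5. In Rpl13a the totals were 1360 for Snord32a, 2236 for Snord33, 12683 for Snord34 and 88641 for Snord35a, in order from 5′ to 3′. All 4 have C/D names. In Gas5 the first of 8 members, Gm26224, had 1272 counts and the last, Gm25789, had 10012, with Snord78 at 6487 and Snord47 at 8183 in between. Gm22489 with 1574 and Gm22357 with 1553 followed Gm26224, and Gm50452, after Snord78, had 6273, so the order in Gas5 held with small steps back. In Taf1d the 7 totals lay between 67 and 453. Those windows had no exon base in the basic annotation set of GENCODE M21. Counted regions of Taf1d nevertheless overlapped several of them, as over all 249 bases of the window of Gm24299.

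**Figure D4:**
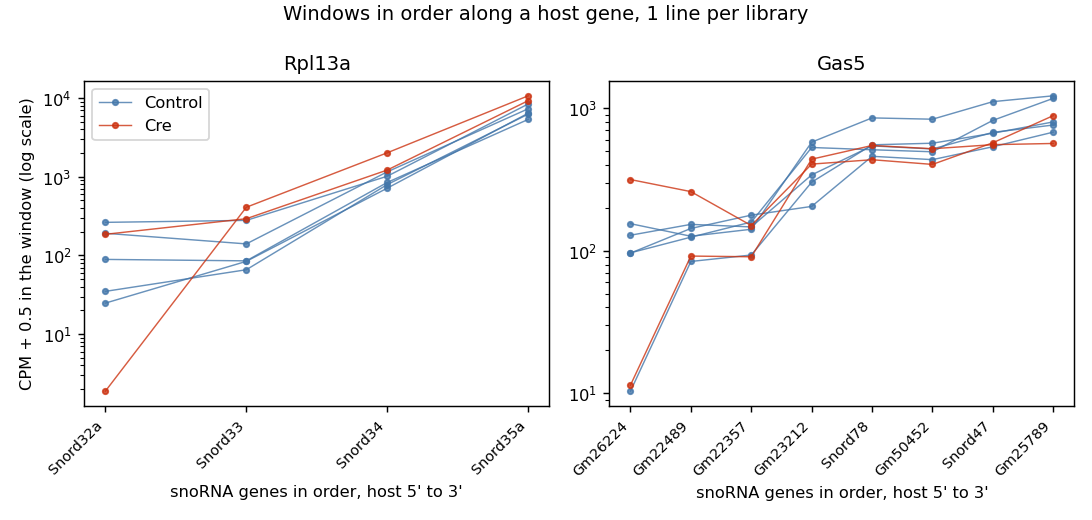
CPM + 0.5 (log axis) in the windows of the snoRNA genes of Rpl13a (left) and Gas5 (right), placed in order from the host's 5′ to its 3′ end, 1 line per library. In Rpl13a the totals go from 1360 to 88641 counts and in Gas5 from 1272 to 10012.

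Several members have a second gene ID or a near-identical copy. Gm26457, Snora16a, Rnu3b1, Rnu3b3 and Rnu3b4 each have a pair of gene IDs with identical counts in every library, so the 121 members hold 116 distinct sets of counts. Gm23723 matches Snora41 at 129 of 132 aligned bases (97.7%). Its window, at chr3:90126667-90126915, held 149 exon bases of Gm43712, which is annotated as an unprocessed pseudogene, and 3536 counts. Snora73a and Snora73b, copies of U17 in the non-coding host Snhg3, were identical at 198 of 205 bases and had 501 and 1081 counts. These alignments are of the snoRNAs, and the counted windows beside them were not compared.
Snora41: gaggattatgtgtgacagACAcaa
Gm23723: gaggattacgtgtgacagACAcaa

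Between Cre and Control no snoRNA gene passed the test. The quasi-likelihood F-test of edgeR tested 109 of the 121 members in a fit over 9854 genes and called 0 higher and 0 lower, against 0% and 0.0101% of all tested genes (two-sided, Benjamini-Hochberg, threshold 0.05). Adjusted p over the members ran from 0.229 to 0.999. At an unadjusted p under 0.05, 5 members were higher and 6 lower, which is 4.59% and 5.50% of those tested, against 1.41% and 10.2% of all tested genes. The fitted value was higher in Cre for 55 members and lower for 54, that is 50.5% higher against 39.9% over all genes. The median log2 fold change was 0.05 over the members and −0.39 over all genes. With upper-quartile scaling it was −0.07 over the members and −0.49 over all genes, and with DESeq2 size factors 0.15 and −0.29. With no filter on low counts it was −0.12 over 121 members and −1.32 over all genes. Without Cre replicate 1 it was −0.15 over 120 members and −2.40 over all genes. Without Cre replicate 2 it was −0.29 over 121 members and −1.22 over all genes. The fits with no filter or without a Cre library tested more genes than the main fit, so their medians are not like for like. The 12 members not tested in the main fit had most of their counts in 1 library, and the filter keeps low genes only through their higher libraries.

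The kinds of window are given side by side, with no test of a difference between them. Of 86 tested members with exon bases in the window, 49 were higher and 37 lower in Cre, with a median log2 fold change of 0.24. Of 23 without exon bases, 6 were higher and 17 lower, with a median of −0.78. Windows without exon were also low in counts. Among tested genes below 30 mean CPM, the median was −0.81 for 39 members and −1.53 for 4839 genes. At 300 mean CPM and above it was 0.29 for 29 members, of which 21 were higher, and 0.00 for 557 genes, of which 279 were higher.

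**Figure D5:**
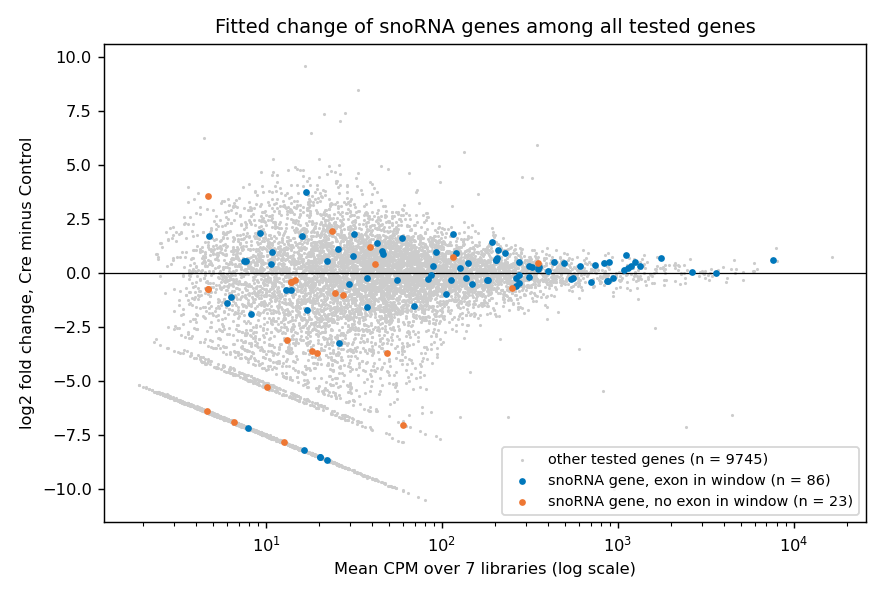
Fitted log2 fold change, Cre minus Control, against mean CPM (log axis) for all genes tested, with 86 snoRNA genes with exon in the window and 23 without marked. Low genes form diagonal lines where both Cre libraries have 0 counts or nearly so, and snoRNA genes with exon lie on both sides of 0 with a median of 0.24.

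The members' summed level was 36701, 34587, 38670, 45040 and 32798 CPM in Control, against 43726 and 46229 in Cre. The groups overlapped, since Control replicate 4 lay above Cre replicate 1, and the means were 37559 ± 4728 (SD, n = 5) and 44978 ± 1770 (n = 2), a ratio of 1.198. C/D names summed to 18880 ± 2424 CPM in Control and 23494 ± 547.6 in Cre, with both Cre libraries above all Control libraries. H/ACA names summed to 10285 ± 1553 and 12153 ± 382.6 CPM, and other names to 8394 ± 1419 and 9331 ± 1605 CPM. The groups overlapped in both of these sums. Snord35a alone was 6757 ± 1159 CPM in Control and 9985 ± 1005 in Cre. Members without overlap on their strand summed to 6670 ± 794.6 CPM in Control and 7824 ± 687.9 in Cre. Their ratio was 1.17, close to that of all members, and their Cre minus Control difference was 1154 CPM, against 7419 for all members.

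Both Cre libraries exceeded all Control libraries in 12 of the 109 tested members (11.0%), against 4.05% of all tested genes. The members were chosen by total count, so these shares are not matched for level and no excess is read from them. Among the 12, Gm27991, Snord49b and Gm22744 passed the filter only through their Cre libraries. Of these 12, 9 windows overlapped another counted region on the same strand and 8 lay in ribosomal protein hosts, so they are not independent of the host genes' counts. Snord33, Snord34 and Snord35a share the host Rpl13a. Snord34 had 1340, 1063, 1878, 1751 and 1378 counts in the Control libraries, against 2349 and 2924 in Cre, and its log2 fold change was 0.84 ± 0.32 (SE, edgeR adjusted p = 0.422). Snord33 had 110, 124, 227, 480 and 138 counts in the Control libraries, against 564 and 593 in Cre, with 1.43 ± 0.57 (edgeR adjusted p = 0.422). Both lay above the Control range without passing the test. The log2 fold change was 0.56 ± 0.25 for Snord35a (edgeR adjusted p = 0.427) and 0.53 ± 0.26 for Rpl13a itself (edgeR adjusted p = 0.429).

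Snora69 in Rpl39 had a log2 fold change of 0.70 ± 0.28 (edgeR adjusted p = 0.422). Gm23201, one of the snoRNA genes of the non-coding host Zfas1, had 115, 182, 77, 125 and 38 counts in the Control libraries, against 203 and 533 in Cre. One Cre library lay within the Control range, and its log2 fold change was 1.80 ± 0.70 (edgeR adjusted p = 0.422). Gm27991, which has no host and was picked with its counts already known, had 4, 1, 2, 2 and 0 counts in the Control libraries, against 30 and 17 in Cre. Both Cre libraries were above all Control libraries, at 13.6 ± 2.70 CPM against 1.09 ± 0.871, and its edgeR adjusted p was 0.429.

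Both Cre libraries lay below every Control library in 7 of the 109 tested members (6.42%), against 10.9% of all tested genes. Counts were 0 in both Cre libraries in 8 (7.34%), against 13.7% of all tested genes. Such genes passed the filter only through their Control libraries. The part that the fewer detected genes of the Cre libraries have in the low counts below was not tested. Snord13 (U13), which helps the acetylation of small subunit ribosomal RNA, is its own gene with no host, at chr8:31149864-31149967 on the minus strand. It had 102, 140, 236, 144 and 61 counts in the Control libraries, against 2 and 0 in Cre. The groups did not overlap, and the log2 fold change was −7.04 ± 1.57 (edgeR adjusted p = 0.229). Its window held no exon base and overlapped no other region on its strand.

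Snord118 (U8), which acts in the processing of large subunit ribosomal RNA, also has no host, at chr11:69073427-69073561 on the plus strand. It had 2, 35, 84, 13 and 8 counts in the Control libraries, and 0 in each Cre library. With 3 counts over both taken as the limit, its level was at least 20.02-fold lower, and at least 10.5-fold lower without Control replicate 3. Snord50a, in the non-coding host Snhg5, had 48, 2, 71, 109 and 29 counts in the Control libraries, and 0 in each Cre library (at least 34.8-fold lower). These bounds set the Control mean against that limit, 0.888 CPM. The Control libraries of these genes spread widely, with Snord50a at 1.35 CPM in Control replicate 2. Snhg5 as a gene had 88 counts in Cre replicate 1 and 0 in Cre replicate 2. Snora16a in Snhg12 had 21, 47, 74, 1 and 85 counts in the Control libraries, and 0 in each Cre library (at least 32.1-fold lower), the same for both of its gene IDs. Its Control replicate 4, at 0.580 CPM, lay below the limit of 0.888 CPM, so the bound holds for the Control mean only. Snhg12 as a gene had 155 counts in Cre replicate 1 and 0 in Cre replicate 2.

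DESeq2 on the same genes called 6 members lower and 0 higher, and limma voom called 0. The 6 are 6.12% of 98 members with an adjusted p, against 7% of all genes lower and 0.373% higher, so the members' share lay near that of all genes. They were Snord13 (DESeq2 adjusted p = 7.4e-05), Snord50a, Snora44, Snord118 and both IDs of Snora16a. In the authors' deposited table, which also uses DESeq2, 7 members had an FDR under 0.05, all lower in Cre. They were the same 6 and Gm23246 in Snhg1, against 3.64% of all genes lower and 0.211% higher in that table.

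Of the other members without a host, Snord104 had 316, 486, 407, 463 and 615 counts in the Control libraries, against 524 and 99 in Cre. Snora57 had 79, 2, 82, 92 and 291 in Control and 18 and 0 in Cre. Both had 1 Cre library inside the Control range, and neither passed the test (edgeR adjusted p = 0.641 and 0.431).

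Members and hosts are set side by side as a description. Of 95 member and host pairs with both tested, 75 had fitted values on the same side of 0. This was 41 of 51 pairs whose window overlaps a region of the host, where reads are shared, and 34 of 44 pairs without such overlap. Both values of a pair come from the same 7 libraries and members can share a host, so the pairs are not independent, and no share was computed for unrelated genes.

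edgeR called none of the proteins that bind and build snoRNA particles, while DESeq2 called 2 of the assembly and processing factors. Over all tested genes, edgeR called 0% higher and 0.0101% lower, and 39.9% were higher in fitted value. DESeq2 called 0.373% higher and 7% lower over all genes with an adjusted p. Nothing particular to these lists is read from the calls. Of the C/D core proteins Fbl (fibrillarin), Nop56, Nop58 and Snu13, 1 was higher and 3 lower in fitted value, with 0 called and a median log2 fold change of −0.27. Of the H/ACA core proteins Dkc1 (dyskerin), Nhp2, Nop10 and Gar1, 2 were higher and 2 lower, with 0 called. Nhp2 had 37, 42, 15, 63 and 0 counts in the Control libraries, and 0 in each Cre library (edgeR adjusted p = 0.422), so its Control replicate 5 was at 0 as well.

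Of 20 assembly and processing factors, 19 were in the table and 17 tested, with 9 higher, 8 lower and 0 called. Xrn2, a nuclear exoribonuclease, had 35, 80, 194, 183 and 82 counts in the Control libraries, against 0 and 1 in Cre (edgeR adjusted p = 0.277). Exosc10, a nuclear exosome subunit that trims snoRNA ends, had 92, 158, 86, 125 and 99 counts in the Control libraries, against 570 and 219 in Cre (edgeR adjusted p = 0.385). The groups did not overlap in either gene. Pih1d1, a factor in C/D particle assembly, had 30, 83, 41, 12 and 21 counts in the Control libraries, and 0 in each Cre library (edgeR adjusted p = 0.367). DESeq2 called Xrn2 and Pih1d1 lower, beside 7% of all genes with an adjusted p.

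Of 55 listed host genes, 54 were in the table and 52 tested, with 26 higher, 26 lower and 0 called by edgeR. Over all tested genes, 39.9% were higher in fitted value, and edgeR called 0% higher and 0.0101% lower. The median log2 fold change of the host genes was 0.01. The most abundant host genes were Rpl13a, Eef2, Rps3, Tpt1 and Rpl12, which ranged from 0.07 for Rps3 to 0.53 for Rpl13a in log2 fold change. DESeq2 called 1 host gene, Snhg20, with 88, 74, 79, 191 and 177 counts in the Control libraries, against 6 and 24 in Cre. Among all genes with a DESeq2 adjusted p, 7% were called lower. Both Cre libraries of Snhg20 lay below all Control libraries.

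Regions of other small RNA genes, which also hold no base of their gene, summed to 10858 to 13069 CPM for miRNA genes and 347.2 to 647.7 CPM for snRNA genes over the 7 libraries. For scaRNA genes, which guide modification of spliceosomal RNAs, the sum was 56.6 to 174 CPM over the Control libraries, against 0.518 and 0 CPM in Cre, the libraries with fewer detected genes.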

How the data were processed

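The authors deposited raw counts per 3′ region for 7 libraries and a table of their own comparison. Per the submitters' processing notes, the build was mm10 and the tools were DESeq2, HISAT2 2.1.0 and FastQC 0.11.8. Not given in the sources used here are the counting tool, its strand setting and its annotation. Per the file headers, the p-values and FDR of the authors' deposited table come from DESeq2, its fold is a ratio of normalized values with a log2 form, and its GC content is a percent.

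Counts were summed per gene ID. CPM used the library total. Transcript sequences came from GENCODE M21 (also mm10). Hosts and exons came from its basic annotation set, with the host taken as the same-strand gene whose next exon lies nearest downstream. Cre was compared with Control in edgeR 4.0.16 (R 4.3.3; TMM, robust, filterByExpr with minimum count 10 and minimum total 15, group only), fitted on all 9854 genes kept and tested on simulated data. Log2 fold changes are Cre minus Control. Alternatives were DESeq2 1.42.0, limma 3.58.1 voom, other scalings and filters, a replicate block, each library left out, and other membership rules.

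Replicate numbers 1 and 2 are in both groups, but nothing in the labels pairs them. P-values set the difference between the groups against the spread between these libraries, which edgeR moderates over all tested genes. The members and lists were chosen with earlier results of these data known. Of the named members, 1 is not reported here. The rule for named genes took the 12 members of highest mean CPM, the 5 of smallest p per direction, the top 3 per class with and without overlap, the members at the limit of 50 counts, and list members of smallest p or highest CPM; others illustrate a pattern and were chosen after their values were seen.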

Additional observations from a re-analysis of the deposited data

Results flagged for a closer look

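A single library lay far from the other 4 Control libraries in 2 of 33 groups of 5 examined, which were the 29 named members and 4 summed levels. For independent normal values the limit used is passed in about 1 in 20 such groups. These groups include gene IDs with identical counts and sums over members, so that rate does not apply to them. Snord100 in Rps12 stood at 1954 CPM in Control replicate 4, from 3370 counts, and its gap to the nearest Control library was 0.806 of the group's range. The overlapping Rps12 region had the same 3370 counts in that library. Snora33, another member in Rps12, had 3286 counts there. Without that library, the log2 fold change of Snord100 was 0.16, against −0.25 with it. Gm22270 in Rpl5, just inside the limit of 50 counts, stood at 25.2 CPM in Control replicate 5, from 41 of its 53 counts, with a gap of 0.717 of the range.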

How the results depend on the processing

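No alternative called a member higher in Cre. The count of members lower, 0 with edgeR, was 6 with DESeq2 and 0 to 2 when each library was left out. The 2 came without Cre replicate 1 and were Snord13 and Gm23639. That fit has 1 Cre library, assumed to vary like the Control libraries, and called 17 genes higher and 202 lower in all. The cause was not tested. The Cre minus Control difference of the summed level, 7419 CPM, was 1154 CPM for members without same-strand overlap, 6167 to 9289 with each library left out, and 7382 with 1 entry per identical set of counts, a setting chosen after seeing the data, as was leaving Control libraries out of the bounds for genes at 0 in Cre. For C/D names the difference of 4613 CPM became 227 without overlap, and for H/ACA names 1869 became 294. Both sums then rest on fewer genes. The C/D median of 148 CPM was 98.2 with members of at least 20 counts, 229.6 with at least 200 and 51.0 without overlap, and the H/ACA median of 86.9 was 46.0 without overlap. The overlap share of 82.3% was 59.5% when at least 50% of the window had to be shared, 98.9% for windows inside a gene body and 84.3% on either strand.

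The labels name no pairing. Deviations from the group mean correlated at 0.003 and 0.002 between same-numbered libraries. With 2 Cre libraries these deviations are equal and opposite in Cre, so the values are not separate checks and cannot exclude a pairing. With the replicate number as a block, 0 members and 5 genes in all were called, all 5 lower. Control replicates 3 to 5 then stand alone in their blocks, so the contrast rests on replicates 1 and 2 of each group. Single genes changed the sign of the log2 fold change under that block: Dkc1 (−0.87), Eef2 (−0.10), Gm24888 (−0.15), Rnu3b4 (0.10), Rps3 (−0.31), Snora31 (0.057), Snord14e (−0.28) and Snord15b (−0.38). With upper-quartile scaling Gm24888 (−0.0024), Rps3 (−0.037) and Snord15b (−0.067) changed sign. Voom turned Rnu3b4 (0.087) and Snora31 (0.029), and DESeq2, or its size factors in edgeR, turned Snora31 (0.095). With each library left out, values ran from −6.10 to 3.37 for Dkc1, −0.42 to 0.011 for Gm23723, −0.083 to 0.68 for Gm24016, −0.081 to 0.69 for Gm24888, −1.92 to 0.72 for Nop10, −0.32 to 0.43 for Rps3, −0.13 to 0.16 for Snora31, −2.26 to 1.83 for Snora73a, −0.37 to 0.16 for Snord100, −0.56 to 0.77 for Snord14e, −0.44 to 0.45 for Snord15b, −0.14 to 0.48 for Snord42a, −0.26 to 0.72 for Snord4a and −0.013 to 0.25 for Tpt1. None of these genes was called. Over all alternatives, 483 values for single genes kept direction and side of the threshold, 8 passed it only there (with DESeq2 or without Cre replicate 1) and 39 changed sign. With 2 Cre libraries, members under about 10 CPM rest on few counts.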
